A study of Mus musculus with 2 samples.

Results

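Somatostatin-expressing islet cells with little pancreatic polypeptide transcript, called δ-cells without Ppy or members here because they lay under a Ppy limit, were examined in 2 single-cell libraries of mouse pancreatic islets. The members were chosen by measured transcript levels. A cell was taken if it held more than 2500 detected genes and under 10% mitochondrial UMIs, and if, per 10000 of its UMIs, it had 40 or more of Sst, fewer than 150 of Ppy, fewer than 300 of Ins1 and Ins2 together, and fewer than 100 of Gcg. UMIs are the molecular tags that count single captured transcripts. Of 8926 cells that passed the limits on genes and mitochondrial UMIs, 254 were members, 92 of 4747 in the control library and 162 of 4179 in the library labelled TBL/RβKO. Because Sst, Ppy, insulin and Gcg chose the cells, the levels of these hormones in the members are a description and not a result. The name does not mean that Ppy UMIs were absent, since all 254 members had them. Median Ppy, per 10000 UMIs, was 24.1 for controls and 31.4 for the library labelled TBL/RβKO, against 3.28 and 2.91 in non-endocrine cells. The lowest member levels, 2.11 and 1.60, were under these non-endocrine medians. Non-endocrine cells went down to 0.353 for controls, so each of these had Ppy UMIs too, and to 0 in the other library. A Ppy UMI thus does not show that a given member expressed Ppy, and the part of free RNA was not tested.

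The study asked what the loss of the transcriptional cofactors TBL1X and TBL1XR1 in β-cells does to the islet. Mice of the TBL/RβKO group carried Cre recombinase inserted at the Ins1 gene together with floxed Tbl1x and Tbl1xr1, and the controls were littermates labelled wildtype. Mice were 5 weeks old, and each group gave 1 library of 150 islets pooled from 4 mice, kept in culture overnight before the cells were separated. Since Cre is driven from Ins1, the labels name no deletion in δ-cells.

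δ-cells are a minor endocrine cell type of the islet. They release somatostatin, which acts through Gi-coupled receptors on neighbouring α- and β-cells to restrain glucagon and insulin secretion. The homeobox factor HHEX maintains them, and they carry the receptor for ghrelin. Pancreatic polypeptide and peptide YY are related peptides of the neuropeptide Y family, and the former marks the PP-cells of the islet.

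The members are defined by one hormone gene and separated from a neighbouring cell class by another, and they hold a further one at high level, so the start regions of these 3 genes are shown. Each is RefSeq sequence on GRCm38.p6 from 250 bases before to 50 bases after an annotated transcription start, written 5′ to 3′ on the gene's strand. Capitals mark matches on either strand to TGACGTCA, the cyclic AMP response element, to TAAT, the core of the sites that homeodomain factors bind, or to TATAAA, the element that positions the polymerase at a start site. The marked matches do not overlap.
Sst, chr16:23890795-23891094, minus strand: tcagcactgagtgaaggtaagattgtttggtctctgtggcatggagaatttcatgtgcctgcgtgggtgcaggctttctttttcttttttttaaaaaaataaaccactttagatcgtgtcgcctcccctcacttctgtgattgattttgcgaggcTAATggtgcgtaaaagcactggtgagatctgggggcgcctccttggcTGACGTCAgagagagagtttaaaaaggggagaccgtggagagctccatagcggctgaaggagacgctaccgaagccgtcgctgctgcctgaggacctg
Pyy, chr11:102107783-102108082, minus strand: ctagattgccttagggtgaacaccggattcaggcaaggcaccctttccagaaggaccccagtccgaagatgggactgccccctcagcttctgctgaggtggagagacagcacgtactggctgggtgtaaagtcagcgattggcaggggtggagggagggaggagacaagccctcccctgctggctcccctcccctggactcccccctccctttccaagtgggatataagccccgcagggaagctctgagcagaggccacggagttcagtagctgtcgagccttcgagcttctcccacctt
Ppy, chr11:102101270-102101569, minus strand: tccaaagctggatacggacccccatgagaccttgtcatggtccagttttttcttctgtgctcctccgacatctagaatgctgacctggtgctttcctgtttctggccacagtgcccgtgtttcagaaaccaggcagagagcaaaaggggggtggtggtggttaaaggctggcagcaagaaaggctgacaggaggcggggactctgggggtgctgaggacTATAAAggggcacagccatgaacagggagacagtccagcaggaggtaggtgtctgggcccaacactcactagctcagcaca
The Sst window held TGACGTCA from 48 bases and TAAT from 95 bases before the start, and the Ppy window held TATAAA from 31 bases before it. None of these letters stood in the Pyy window. TGACGTCA was in 1.79%, TAAT in 58.0% and TATAAA in 13.6% of 32851 such windows in the table, and a match is a description of the letters only. On GRCm39, Pyy (chr11:101997502-101998658) and Ppy (chr11:101990756-101992145) are neighbours on the minus strand with 5356 bases between them, Sst is at chr16:23707321-23711733, Hhex at chr19:37423258-37429179 and Rbp4 at chr19:38105066-38113754.

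The libraries held 7067 and 5833 barcodes, and 241434108 and 185062206 UMIs, the control library first here and wherever 2 values stand together. Barcodes found in both libraries numbered 14, and 0 of these were members. The members' UMIs came to 1951464 and 4091827. Median UMIs per member were 19539 and 21035 and median detected genes 4978 and 5216, and after thinning every cell to 5000 UMIs the median genes were 2238.5 and 2252.5. With 1 library per group there was no test. All intervals are 95% intervals for counting error alone, not for the spread between mice or libraries: exact Clopper-Pearson for a share, Newcombe for a difference of shares, exact Poisson for a level and exact conditional binomial for a ratio.

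δ-cells without Ppy made up 1.94% (1.57 to 2.37) of the kept cells of the control and 3.88% (3.31 to 4.51) of those labelled TBL/RβKO, which differ by 1.94 points (1.24 to 2.66). With the Ppy limit at 50 in place of 150 the difference was 1.20 points. Their number depended on the class it was set against. There were 0.0403 members per β-cell among controls, and 0.290 for the library labelled TBL/RβKO, where 559 cells met the β-cell limits against 2282. Per α-cell the ratios were 0.0852 and 0.123. Against the Ppy-rich classes the ratios were nearly level, at 0.667 and 0.672 members per Ppy cell and 0.613 and 0.611 per δ-cell with Ppy. Members were 38.0% (31.9 to 44.5) and 37.9% (33.3 to 42.7) of all δ-cells so defined, and the interval of the difference ran from -7.77 to 7.45 points. The shares of 1 library add up to the whole, so a gain of δ-cells and a loss of other cells cannot be told apart from them.

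The comparison classes were set by the same hormone limits. δ-cells with Ppy had Sst and Ppy at or above their limits, while Ppy cells, α-cells and β-cells each passed only the limit of Ppy, Gcg or insulin. Non-endocrine cells were below all limits and had 10 or more UMIs per 10000 of macrophage, endothelial, stromal and lymphoid genes. Among kept cells under the Ppy, insulin and Gcg limits, few lay near the Sst limit. Between 20 and 40 Sst UMIs per 10000, just outside the limit, lay 0 control cells and 3 cells of the library labelled TBL/RβKO, and between 40 and 80, just inside, lay 2 and 1. The Ppy limit ran through a continuous spread, with 16 and 29 cells between 100 and 150 just inside it and 10 and 20 cells between 150 and 200 just outside. Insulin between 200 and 300 was found in 9 and 4 members, and 2 and 6 cells otherwise eligible had 300 to 400. Gcg between 50 and 100 was found in 1 and 4 members, and 2 and 1 such cells had 100 to 200. Of all kept cells with Sst at the limit, 659 and 897, the insulin limit alone left out 167 and 98, the Gcg limit alone 42 and 41, and the Ppy limit alone 150 and 265.

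**Figure D1:**
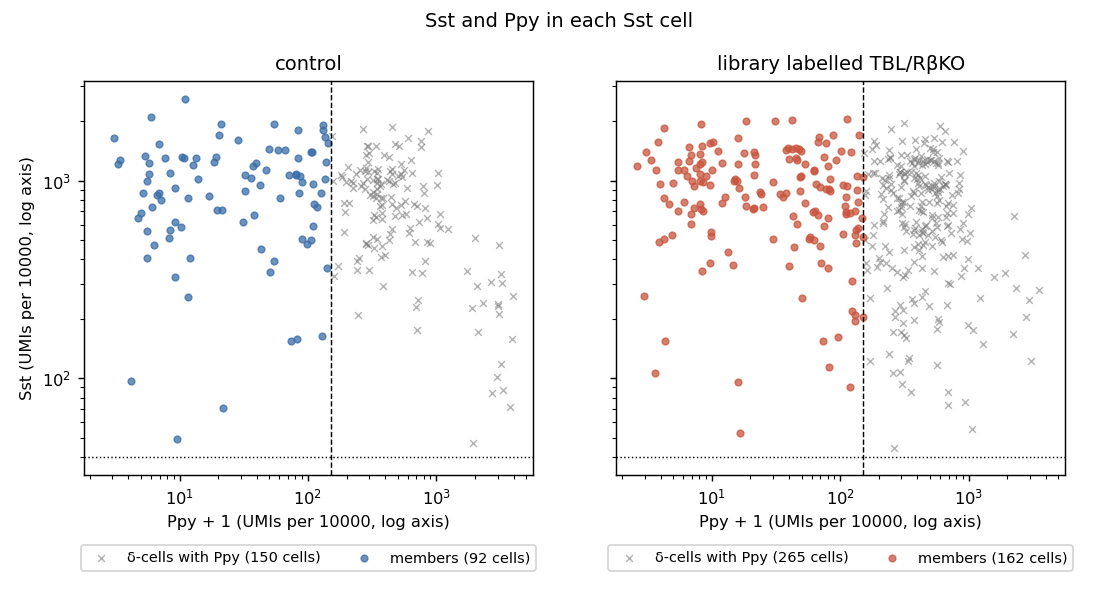
Each point is a kept cell with Sst at or above 40 and insulin and Gcg under their limits, with Ppy plus 1 on the horizontal and Sst on the vertical axis, both in UMIs per 10000 on log axes; dashed and dotted lines mark the Ppy and Sst limits. The 92 and 162 members lie left of the dashed line and the 150 and 265 δ-cells with Ppy right of it, with no gap between them in either library.

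Apart from Sst, which the rule required, the label was checked on the other 4 marker genes. Hhex, the homeobox factor of δ-cells, was at 220 CPM, UMIs of the gene per 1e+06 UMIs of the members, in the control and 167 CPM in the library labelled TBL/RβKO, against 0.632 and 1.06 CPM in α-cells and 0.405 and 1.14 CPM in β-cells. With every cell thinned to 5000 UMIs, a Hhex UMI was found in 54.3% (43.6 to 64.8) of control members and 58.0% (50.03 to 65.7) of those in the library labelled TBL/RβKO, and without thinning in 90.2% and 92.0%. Non-endocrine cells, of median depth 21276 and 20364.5 UMIs, had it in 10.5% and 8.51% when thinned. Ghsr, the ghrelin receptor, was at 28.7 and 28.6 CPM in the members. A Ghsr UMI was found in 8.70% and 14.2% of thinned members and in 0 of 153 and 0 of 282 non-endocrine cells, which allows shares of cells with a UMI of up to 1.96% and 1.06% by the limit of 3 counts. Rbp4, the plasma retinol carrier, was at 4974 and 3565 CPM in the members, and was also present in α-cells, at 469 and 293 CPM. Lepr, the leptin receptor, was at 0 UMIs in the members of both libraries, where a count of 0 allows 1.54 and 0.733 CPM and a share of cells with a UMI of up to 3.26% and 1.85%, which limits detection and not expression. Of the 4 markers that the rule did not use, Hhex, Rbp4 and Ghsr were found and Lepr was not detectable at this depth.

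The genes that set the members apart from α-, β- and Ppy cells were ordered by their smallest log2 ratio over these classes in both libraries. Of 3341 genes at 50 CPM or more in the members of both, 98 were at least 2-fold and 41 at least 4-fold above every one of the 3 classes in both libraries. Ly6h, a small membrane-anchored protein that modulates nicotinic receptors, led with 180 and 260 CPM against at most 1.01 CPM in those classes. Hhex stood second. Ptprz1, a receptor tyrosine phosphatase known from glia, was at 326 and 339 CPM against at most 2.82 CPM, and Bmp3, a bone morphogenetic protein, at 58.9 and 57.2 CPM against at most 0.587 CPM. Cd24a, a surface glycoprotein, reached 334 and 316 CPM, and the proteoglycan gene Spock3 80.5 and 76.0 CPM. Mest, an imprinted gene, was at 380 and 352 CPM, and Adcy8, an adenylyl cyclase activated by calcium and calmodulin, at 71.7 and 77.7 CPM. Further leading genes were Col25a1, Luzp2, Cela1, Shisal2b, Gap43 and Mef2c.

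These genes joined several functions. Gap43, a growth cone protein of neurons, was at 193 and 208 CPM, and Shisal2b, of the shisa-like family, at 705 and 586 CPM. Mef2c, a MADS-box transcription factor, was at 76.9 and 59.9 CPM but higher in non-endocrine cells, at 363 and 271 CPM. Cela1 encodes an elastase known from the exocrine pancreas, and stood at 116 and 84.8 CPM. Of the 10 acinar genes listed, Cela1 was the only one measured in the members, and 8, among them Cpa1, Prss2, Ctrb1 and Amy2a5, were at 0 UMIs in the members of both libraries, with 0 and 2 UMIs of Pnlip. Cela1 was higher in δ-cells with Ppy, at 169 and 132 CPM, while the other leading genes shown were at a similar or a higher level in the members.

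**Figure D2:**
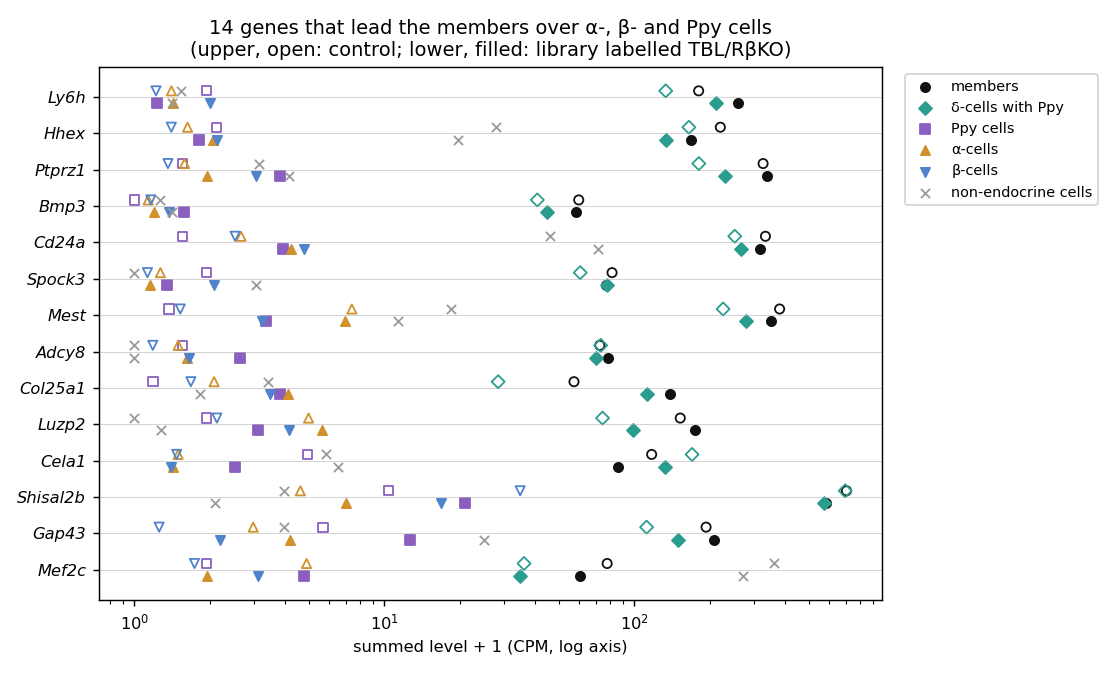
Summed levels plus 1 (CPM, log axis) of 14 leading genes in 6 cell classes, one marker shape per class, open for the control and filled for the library labelled TBL/RβKO. Members and δ-cells with Ppy lie together to the right, above α-, β- and Ppy cells for every gene, and Mef2c is highest in non-endocrine cells.

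The members held other peptide transcripts beside somatostatin. Peptide YY was at 58544 and 61716 CPM, against 127 and 483 CPM in non-endocrine cells, and every member had at least 1 UMI of it. Per cell, Pyy ran from 2.51 to 1745 UMIs per 10000 with a median of 523 in the control, and from 5.09 to 1655 with a median of 652 in the library labelled TBL/RβKO, so the libraries overlapped over nearly their whole range. α-cells had Pyy medians of 37.4 and 33.9 and β-cells of 1.03 and 6.04 UMIs per 10000. High Pyy was not particular to the members, with medians of 572 and 615 in δ-cells with Ppy and 987 and 884 in Ppy cells. Iapp, which encodes amylin, was at 36678 and 31568 CPM in the members, against 673 and 485 CPM in non-endocrine cells. Sst itself had medians of 977 and 907 UMIs per 10000, with ranges of 49.2 to 2595 and 52.7 to 2053. Nts, neurotensin, was at 0 UMIs in both libraries, and Ghrl at 1 and 2 UMIs.

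Insulin, which the rule held under its limit in members and non-endocrine cells alike, is given as a description. Median insulin was 99.4 UMIs per 10000 in control members and 81.0 in control non-endocrine cells, and 16.4 and 13.96 in the library labelled TBL/RβKO. Mafa, a β-cell transcription factor named after its values were seen, had 45 and 7 UMIs in the members, at 23.1 and 1.71 CPM, and 17.3 and 1.24 CPM in non-endocrine cells. Gcg was at 979 and 839 CPM in members and 725 and 588 CPM in non-endocrine cells.

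δ-cells without Ppy differed little from δ-cells with Ppy beyond the hormones that divided them. Of 6639 genes at a mean of 20 CPM or more, 28 (0.422%) were higher by 2-fold or more in the members of the control library and 8 (0.121%) in the library labelled TBL/RβKO, and 15 (0.226%) and 13 (0.196%) were lower. Those past 2-fold in both libraries were 3 higher and 5 lower. Tacr3, the neurokinin 3 receptor, was at 26.6 CPM in the members and 12.2 CPM in δ-cells with Ppy in the control (log2 ratio 1.13, 0.56 to 1.70), and at 31.5 and 15.6 CPM in the library labelled TBL/RβKO (1.01, 0.65 to 1.37). Rasgef1a, a Ras exchange factor, and Sntg2, a syntrophin, were higher by log2 ratios of 1.09 and 0.93 and of 0.93 and 0.89. The other 2 of the highest, Apoe and Ccl5, came mostly from single cells: 290 of 308 Apoe UMIs and 262 of 264 Ccl5 UMIs of the control members were in 1 cell, and 112 of 133 Apoe UMIs of the library labelled TBL/RβKO were in 1 cell.

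Among the genes lower in the members, Mctp2 and Id3 were also high in Ppy cells, at 175 and 207 CPM in the control. Mctp2, a C2-domain membrane protein, was at 7.17 CPM in the members and 64.9 CPM in δ-cells with Ppy of the control (log2 ratio -3.18), and at 13.4 and 46.0 CPM in the library labelled TBL/RβKO (-1.78). Arhgap6, a GTPase-activating protein, had log2 ratios of -2.20 and -1.19. Chrm3, the muscarinic receptor through which acetylcholine acts on islet cells, was at 83.01 against 183 CPM and 95.8 against 254 CPM, with log2 ratios of -1.14 and -1.41. Id3, an inhibitor of helix-loop-helix factors, had log2 ratios of -1.13 and -1.17. Sst was higher in the members, at 99765 against 63754 CPM and 84471 against 61858 CPM. Over the 4 ranges of Ppy (under 15, 15 to 150, 150 to 500, and 500 or more UMIs per 10000), Mest was at 358, 393, 358 and 117 CPM in the control and 382, 336, 293 and 259 CPM in the library labelled TBL/RβKO.

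Members varied in Sst and in the number of genes detected. Sst of 500 or more UMIs per 10000 was found in 75 control members and 136 of the library labelled TBL/RβKO, 150 to under 500 in 14 and 21, and under 150 in 3 and 5. From the upper to the lowest range, Hhex was at 235, 140 and 260 CPM in the control, the last from 6 UMIs, and at 190, 104 and 53.8 CPM in the library labelled TBL/RβKO, the last from 8 UMIs, so the libraries did not share one order. Rbp4 was lower in each lower range, at 5414, 3003 and 1733 CPM and at 4004, 2347 and 1157 CPM. Chga, the granule protein chromogranin A, was highest in the middle range, at 2749, 5060 and 2339 CPM and at 2969, 8464 and 3068 CPM. Among members with Sst under 500, Chga was at 9251 and 8804 CPM in those with 6000 or more genes and at 3033 and 3521 CPM in the others. Over cells, the Spearman correlation with Sst was 0.39 and 0.31 for Rbp4, 0.45 and 0.29 for Iapp and 0.07 and 0.23 for Hhex (92 and 162 cells, which share their library and divide by the same totals).

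Cells with low Sst and many genes were unequally spread. Members with 6000 or more detected genes numbered 10 of 92 (10.9%, 5.34 to 19.1) among controls, and 36 of 162 (22.2%, 16.1 to 29.4) in the library labelled TBL/RβKO. Those that also had Sst under 500 were 2 and 13 cells, and the 13 held 18.6% of all member UMIs of their library, against 5.23% for the 2. The 13 cells had a median of 56569 UMIs and 7837 genes, Hhex at 93.2 CPM, Chga at 8804 CPM and Ins2 at 8334 CPM, while the 113 cells of the same library with Sst of 500 or more and under 6000 genes had Hhex at 200 CPM, Chga at 2299 CPM and Ins2 at 2212 CPM. Scrublet placed 1 of the 13 among the highest doublet scores, and 1 and 3 members in all. Whether these cells are 1 cell or 2 was not tested.

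**Figure D3:**
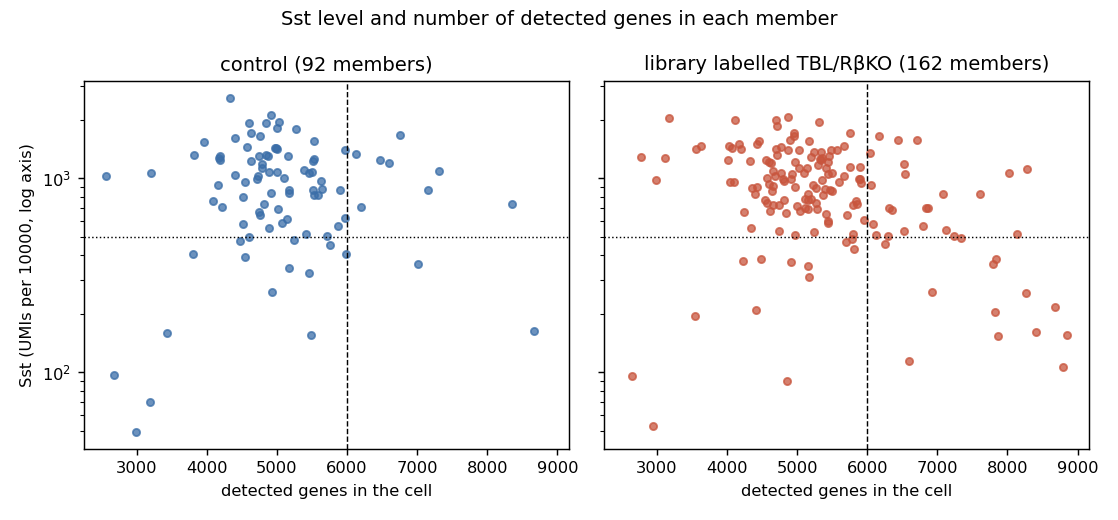
Each point is a member, with detected genes on the horizontal and Sst (UMIs per 10000, log axis) on the vertical axis; lines mark 6000 genes and 500 Sst UMIs per 10000. The lower right holds 2 control cells and 13 cells of the library labelled TBL/RβKO.

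Tbl1x and Tbl1xr1, the genes floxed in TBL/RβKO mice, were not lower in members of that library. Tbl1x (chrX:76554141-76706597) was at 176 CPM (158 to 195) in control members and 238 CPM (223 to 253) in members from the other library, and Tbl1xr1 (chr3:22129947-22270770) at 53.8 CPM (44.0 to 65.1) and 86.0 CPM (77.3 to 95.5). The log2 ratios were 0.43 (0.26 to 0.62) and 0.68 (0.36 to 1.01). Both genes were also higher in β-cells of that library, at 91.3 and 303 CPM for Tbl1x, against the label, so the library is called by its label throughout. Which exons are floxed is not given in the sources used here, and 3′ tags outside them would not show a deletion. In members with Sst of 500 or more and under 6000 genes, Tbl1x was at 166 and 153 CPM and Tbl1xr1 at 44.6 and 59.2 CPM. In the 13 cells with low Sst and many genes, Tbl1x was at 470 CPM and Tbl1xr1 at 169 CPM. Non-endocrine cells had Tbl1xr1 at 38.1 and 62.1 CPM and Tbl1x at 103 and 81.1 CPM. Cre was at 0 UMIs in control members and 1 UMI in the 162 members of the other library, 0.244 CPM, under the 0.733 CPM that 0 UMIs allow and under the 0.688 CPM in non-endocrine cells of that library. β-cells there had Cre at 38.4 CPM, with a UMI in 22.5% of 559 cells, and control β-cells had 0 UMIs.

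Between the libraries the members' transcriptomes were close. Of 6891 genes at a mean of 20 CPM or more, 51 (0.74%) were higher by 2-fold or more in the library labelled TBL/RβKO and 21 (0.305%) lower. The log2 ratios had a median of 0.03 and a standard deviation over genes of 0.35. Among the 51, 46 were still 2-fold higher without the 1 cell of each library that held most UMIs of the gene, 23 in members with Sst of 500 or more, and 17 in members with under 6000 genes. Among the 21, 14, 16 and 12 were still 2-fold lower.

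The highest ratios came largely from few cells. Msln, mesothelin, had 1 control UMI and 257 UMIs in the other library, of which 221 were in 1 cell. Gast, the hormone gastrin, had 7 and 201 UMIs, of which 169 were in 1 cell, and without the top cells its log2 ratio was 1.61 in place of 3.78. Akr1c14, a steroid dehydrogenase, had 12 and 183 UMIs, with 100 in 1 cell. S100a6, a calcium-binding protein, was at 76 and 626 UMIs and a log2 ratio of 1.97, and was 0.24 in members with Sst of 500 or more and -0.57 under 6000 genes. B3galt1, Rasgef1b and Eps8, a glycosyltransferase, a Ras-family exchange factor and an actin regulator, had log2 ratios of 2.09, 1.96 and 1.95 in all members and of 0.67, 0.35 and 0.22 in members with Sst of 500 or more. Prkd1, protein kinase D1, went from 2.39 to 1.08 and Limch1, an actomyosin regulator, from 2.34 to 1.78. Socs3, the suppressor of cytokine signalling, was spread over 13 control cells and 71 cells of the other library, with 18 and 156 UMIs, and its log2 ratio of 2.05 (1.34 to 2.84) was 2.25 with Sst of 500 or more and 2.08 under 6000 genes. In δ-cells with Ppy the log2 ratios were 6.49 for Msln, 2.94 for Akr1c14, 4.23 for S100a6, 3.12 for B3galt1 and 2.02 for Rasgef1b. For Eps8, Prkd1, Limch1, Socs3 and Gast they were 3.12, 1.84, 1.14, 1.10 and -0.16.

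The lowest ratios came from single control cells to a greater degree. One control member, with 155 Sst UMIs per 10000, held 191 UMIs per 10000 of macrophage, endothelial, stromal and lymphoid genes, where the next control member had 5.03. That same cell held 94 of 96 UMIs of H2-Ab1, 223 of 230 of Cd74, 119 of 121 of H2-Aa, all of the MHC class II pathway, 262 of 264 of the chemokine Ccl5, 141 of 145 of Lgals3, galectin 3, and 58 of 78 of Fcer1g, an Fc receptor subunit. Members of the other library had 0, 8, 5, 10, 16 and 28 UMIs of these genes. Without members that had 10 or more UMIs per 10000 of such genes, 1 in each library, the log2 ratio of Cd74 was -0.88 in place of -5.91 and that of Apoe, apolipoprotein E, -0.85 in place of -2.28, while H2-Aa and Lgals3 turned to 0.25 and 0.92. Npy, neuropeptide Y, had 80 of 106 control UMIs in 1 cell, and Stmn1, stathmin, 68 of 113. Kctd16, a GABA-B receptor subunit, was spread over 24 cells in each library, with 95 and 68 UMIs and a log2 ratio of -1.55 (-2.02 to -1.09), which was -0.52 in members with under 6000 genes.

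**Figure D4:**
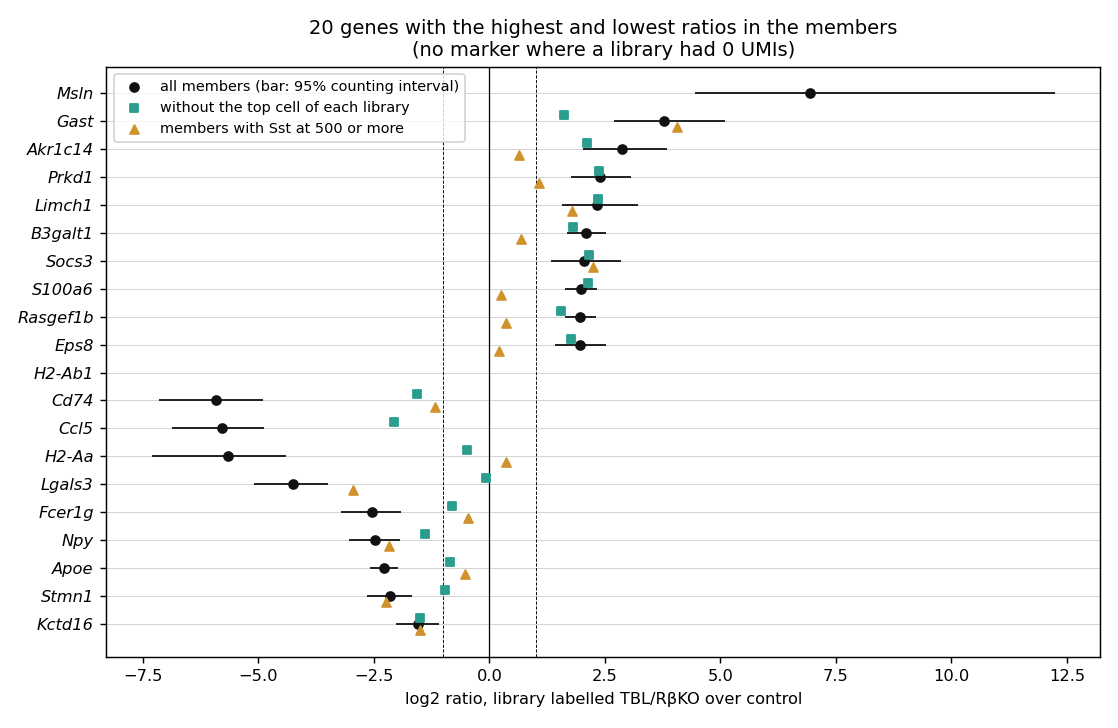
Log2 ratios (library labelled TBL/RβKO over control) of the 10 highest and 10 lowest genes in all members with 95% counting intervals, without the top cell of each library, and in members with Sst of 500 or more. Socs3 and Kctd16 stay near their value in all 3, while S100a6, Rasgef1b, Eps8 and H2-Aa lie between 0.22 and 0.37 in members with Sst of 500 or more.

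The 75 and 136 members with Sst of 500 or more were then compared alone, a choice made after the values were seen. Of 6761 genes, 46 (0.68%) were higher by 2-fold or more and 14 (0.207%) lower, and the genes named next are examples picked after their values were seen, by no fixed rule. Socs3 was at 9.33 and 44.3 CPM (log2 ratio 2.25, 1.48 to 3.12), and Stat3, the cytokine-activated factor that induces it, at 149 and 306 CPM (1.04, 0.83 to 1.25), with UMIs in 59 and 130 cells. Rgs4, a regulator of G protein signalling, was at 42.3 and 125 CPM (1.57, 1.19 to 1.96), and was far higher in β-cells of the library labelled TBL/RβKO, at 630 against 12.7 CPM in control β-cells. Dnm3, a dynamin, was at 161 and 446 CPM (1.47, 1.28 to 1.67). Col25a1, a membrane collagen and one of the leading genes of the members, was at 64.7 and 154 CPM (1.25, 0.95 to 1.57). Mapk4 and Gadd45g, which encode an atypical MAP kinase and a growth arrest protein, had log2 ratios of 1.45 and 1.10.

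Among the lower genes with Sst of 500 or more, Trpm3, a cation channel, was at 407 and 181 CPM (log2 ratio -1.17, -1.34 to -1.01). Calb1, the calcium buffer calbindin, was at 86.5 and 39.5 CPM (-1.13, -1.49 to -0.77), and Sfrp5, a secreted Wnt antagonist, at 34.2 and 16.4 CPM (-1.06, -1.64 to -0.49). Pcdh9, a protocadherin, Id3, and Ppp1r14c, an inhibitor of protein phosphatase 1, had log2 ratios of -1.30, -1.42 and -1.28. In δ-cells with Ppy, other cells of the same 2 libraries, the log2 ratios were 1.10 for Socs3, 0.85 for Stat3, 2.10 for Rgs4, 0.78 for Dnm3, 2.02 for Col25a1, -0.82 for Trpm3, -1.71 for Calb1, -1.39 for Sfrp5 and -1.496 for Id3. In α-cells they were 1.37, 0.55, 0.87, 0.96, 1.52, 1.27, -0.69, -0.25 and -0.27 in the same order. Trpm3 was lower in both δ-cell classes and also in β-cells (log2 ratio -1.40) of the library labelled TBL/RβKO, and higher in its α-cells and Ppy cells (1.54), and these differences were not tested.

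The gene lists are described next by role. With 0.74% of all genes higher and 0.305% lower by 2-fold or more, a count of 0 in lists of this size is near the background and is no result about the list. Of 15 measured transcription factors 0 were past 2-fold, and their median log2 ratio was -0.05 against 0.03 for all genes. Isl1, St18, Etv1 and Rfx3, the highest of them, had log2 ratios of -0.18, 0.14, -0.15 and 0.05. Hhex had a log2 ratio of -0.39 (-0.57 to -0.22), and Nkx2-2 and Nkx6-1 both -0.56. Of 7 measured genes of secreted peptides other than the hormones of the rule, Gast was higher and Npy lower by 2-fold or more. Pyy, Iapp and Rbp4 had log2 ratios of 0.08, -0.22 and -0.48.

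Receptors, by which δ-cells are driven or restrained, were measured for 13 of 27 listed genes, with a median log2 ratio of 0.04. Igf1r, the IGF1 receptor, was at 124 and 158 CPM and Gria2, an AMPA receptor subunit, at 148 and 117 CPM. Glp1r, the receptor for GLP-1, was the only one past 2-fold, with 124 and 717 UMIs, 63.5 and 175 CPM and a log2 ratio of 1.46 (1.19 to 1.75). In members with Sst of 500 or more the log2 ratio was 0.38, under 6000 genes 0.11, and in the 13 cells with low Sst and many genes Glp1r was at 563 CPM. Undetected receptors, at 0 UMIs in both libraries, were Adra2b, Lepr, Npy1r, Crhr1 and Sstr5.

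Genes of the secretory machinery were read in the same way. Of 19 measured genes of stimulus-secretion coupling 0 were past 2-fold and the median was 0.13. Abcc8, the sulphonylurea receptor of the KATP channel, was at 781 and 729 CPM, and Itpr1, an IP3 receptor, at 638 and 492 CPM. The calcium channel genes Cacna1a and Cacna1c had log2 ratios of 0.51 and 0.43, which were 0.23 and 0.25 with Sst of 500 or more. Of 15 genes of hormone processing and granules 0 were past 2-fold, with a median of -0.13: Chgb, Chga, Pcsk2 and Scg2, of which Pcsk2 is the convertase and the others granins, had log2 ratios of 0.35, 0.39, -0.22 and -0.29, and Pcsk1, the other convertase, -0.81. Of 20 exocytosis genes 0 were past 2-fold, with a median of 0.15, and Rims2, Cplx2, Syt13 and Cadps had log2 ratios of 0.16, -0.21, 0.35 and 0.51. With Sst of 500 or more the ratios of Chga and Cadps were 0.11 and 0.17, and under 6000 genes they were -0.19 and -0.86.

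Regulatory and stress genes came next. Of 9 measured genes of the corepressor list, which holds the partners of TBL1X and TBL1XR1 together with these, 0 were past 2-fold, the median was 0.19 and the highest log2 ratio 0.68 (Tbl1xr1), and Ncor1, Pax6 and Kdm1a had log2 ratios of 0.14, 0.19 and -0.13. Of 16 immediate early and heat shock genes 0 were past 2-fold, with a median of 0.00. Fos, Btg2, Hsp90ab1 and Hspa8 had log2 ratios of -0.04, 0.02, 0.27 and 0.32. Of 19 genes of the unfolded protein response 0 were past 2-fold, with a median of -0.10, and Hsp90b1, Hspa5, Pdia3 and Calr had log2 ratios of -0.29, -0.10, -0.29 and -0.04. Of 18 listed cell cycle genes only 4 were measured and 0 of these were past 2-fold. Ccnd2, Ccnd1, Ccnd3 and Pcna had log2 ratios of 0.25, 0.07, 0.33 and 0.11. Cenpf and Mcm3, under the limit of a mean of 20 CPM, had 30 and 1 UMIs and 7 and 18 UMIs.

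Of 19 measured cell adhesion and neuronal genes, Robo1, the Slit receptor, was past 2-fold, with 30 and 242 UMIs and a log2 ratio of 1.94. It was 0.58 with Sst of 500 or more and -1.33 under 6000 genes, so the direction turned with the cells of many genes. Cdh2 and Dscam, which encode N-cadherin and a neuronal adhesion molecule, had log2 ratios of 0.03 and -0.10. Of 11 genes of antigen presentation and interferon response 0 were past 2-fold. H2-K1, H2-D1 and Psmb8 had log2 ratios of 0.02, -0.12 and -0.33, and B2m had -0.69, or 0.19 without the top cells, since 89 of its 177 control UMIs were in 1 cell.

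**Figure D5:**
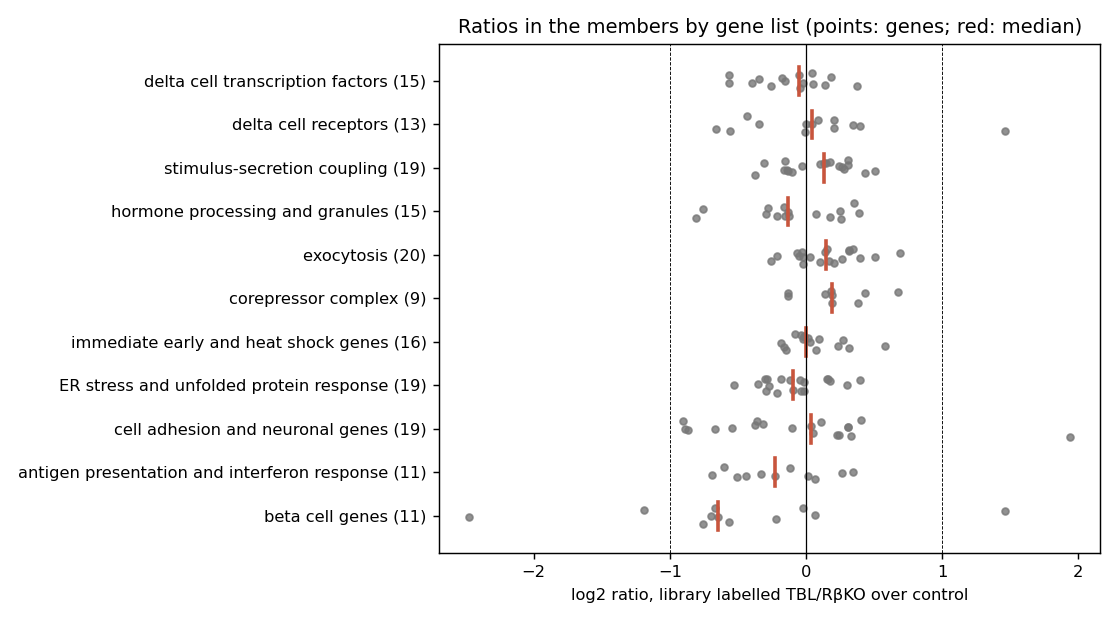
Points are the log2 ratios (library labelled TBL/RβKO over control) of the measured genes of each list with 8 or more of them, the red lines their medians, and the dashed lines 2-fold. The transcription factor, secretion and stress lists lie within 2-fold, and the β-cell list has its median at -0.65.

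Genes of other islet cells were read for what the members might hold beside their own. Of 11 measured β-cell genes, Glp1r was higher and Npy and Ero1b lower by 2-fold or more, and the median was -0.65. Ero1b, an ER oxidase of β-cells, was at 90.7 and 39.8 CPM in members (log2 ratio -1.19), 58.6 and 42.1 CPM in non-endocrine cells and 896 and 519 CPM in β-cells. Of 7 α-cell genes, Ttr, transthyretin, was lower, with 407 and 319 UMIs and a log2 ratio of -1.42, and 171 of the control UMIs were in 1 cell. Without the top cells it was -0.72. Dpp10, Tmem176b and Tmem176a had log2 ratios of -0.23, 0.28 and 0.15. Of 5 PP-cell genes 0 were past 2-fold, with Meis2, a homeobox factor, at 1422 and 1309 CPM and a list median of -0.05. The part of free RNA in these ratios was not tested.

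Markers of cells from outside the endocrine islet differed by list. The macrophage, endothelial, stromal and lymphoid lists chose the non-endocrine cells, so their higher sums there are a description and not a result. The Schwann cell genes took no part in that choice and summed to 213 and 525 CPM in non-endocrine cells. The summed levels of the 8 macrophage genes were 378 and 78.7 CPM in members and 11139 and 5525 CPM in non-endocrine cells; none of the 8 was at 0 in both libraries, and Cd74 was past 2-fold as described. C1qa, a complement subunit, was at 124 and 72.6 CPM, spread over 69 and 106 cells, whereas C1qb had 66 and 1 UMIs. The 8 endothelial genes summed to 22.5 and 15.4 CPM, with Kdr and Cdh5 at 0, the 8 lymphoid genes to 2.56 and 4.40 CPM, with Cd2 and Cd3e at 0, and the 8 Schwann cell genes to 31.3 and 32.7 CPM, with Sox10 and Ngfr at 0. The 8 stromal genes summed to 3.07 and 82.4 CPM, and 1 member of the library labelled TBL/RβKO had 89.5 UMIs per 10000 over the macrophage, endothelial, stromal and lymphoid genes where the next had 6.76. The ductal list had 5 measured genes and 0 past 2-fold, and summed to 451 and 748 CPM in members and 802 and 607 CPM in non-endocrine cells. Its keratins Krt8 and Krt7 were at 170 and 321 CPM and at 141 and 268 CPM in the members, against 3.24 and 123 CPM and 1.89 and 61.7 CPM in non-endocrine cells, and their log2 ratios of 0.91 and 0.93 were 0.11 and 0.47 with Sst of 500 or more.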

How the data were processed

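Single-cell RNA was measured in 2 libraries (control and TBL/RβKO, 1 each), made with Chromium 3′ chemistry. The deposited matrices hold raw counts of UMIs per gene and barcode (22383 features, 2 of them added Cre sequences), which the authors made with Cell Ranger; the submitters' processing notes name version 7.1.0 and the builds GRCm39 and mm39. The smallest barcode had 500 UMIs in each library, and whether the authors removed free RNA or doublets before deposit was not tested.

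Kept cells had more than 2500 genes and under 10% mitochondrial UMIs. UMIs were summed per library over the members and divided by their total (CPM, per 1e+06 UMIs). Genes with a mean of 20 CPM or more were compared, without the hormones of the rule and Cre, and called past 2-fold at a log2 ratio of 1 or more or -1 or less. Free RNA was not removed from any level, and doublets stayed in the cells except in the alternative that removes the highest Scrublet scores at 0.8% per 1000 barcodes. The members, lists and named genes were chosen with earlier results of these data known. Named were the 10 highest and 10 lowest ratios (50 UMIs or more in the higher library, interval without 0), the 4 highest genes of each list and those past 2-fold, the 15 leading genes, and the 5 highest and 5 lowest against δ-cells with Ppy. The lists covered δ-cell factors, secreted peptides, receptors, stimulus-secretion coupling, granules, exocytosis, corepressors, immediate early and heat shock genes, the unfolded protein response, adhesion, antigen presentation, cell cycle, and the genes of β-, α-, PP-, macrophage, endothelial, stromal, lymphoid, acinar, ductal and Schwann cells. The ratio code was tested on simulated data. Alternatives changed the limits on genes, Sst, insulin, Ppy and mitochondrial UMIs, the scaling, the weight of cells, the filter on low levels and the denominator. A further set was chosen after the data were seen: Sst of 500 or more, no members with genes of other cell types, and no top cell. Gene positions came from the GENCODE annotation of GRCm39 by Ensembl identifier, which found 9 of 9 genes. Python 3.11.15 was used with numpy 2.4.6, scipy 1.17.1, pandas 2.3.3, scanpy 1.11.5, anndata 0.12.19, matplotlib 3.10.9. Some genes that the naming rule picked are not reported here.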

Additional observations from a re-analysis of the deposited data

Results flagged for a closer look

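One value lay outside the comparisons of gene levels. A sequence added to the feature list, the Cre gene read on its plus strand, had 1 UMI in 1 of the 162 members of the library labelled TBL/RβKO and 0 UMIs in the 92 control members. It was picked out because the control had none. At 0.244 CPM (0.006 to 1.36) it lay within the interval of the 0.688 CPM (0.224 to 1.61) in non-endocrine cells of the same library.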

How the results depend on the processing

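As a share of kept cells, members were higher in the library labelled TBL/RβKO under all alternative limits run. The difference was 1.20 points with Ppy under 50 and 2.75 points with mitochondrial UMIs under 5%, against 1.94 points. With other denominators it was not always above 0. Members were 37.6% and 36.5% of members plus non-endocrine cells, a difference of -1.06 points (-8.64 to 6.34). The genes higher by 2-fold or more (51) were 27 under 6000 detected genes, 9 at a mean of 100 CPM or more, 545 with 10 UMIs over both libraries as the only minimum, and 13 without genes whose level in non-endocrine cells was over 20% of that in members in either library. The genes lower by 2-fold or more (21) were 36 with Ppy under 50, 36 when scaled without hormones and mitochondrial genes, and 3, 341 and 5 under those last 3 filters. The last 3 filters change which genes are counted; for the others the cause was not tested. Over 78 named genes and 11 alternatives, 622 of 850 ratios stayed within the counting interval, 216 left it, and 12 ratios past 2-fold changed sign. Under 6000 genes the log2 ratio was -0.012 for Akr1c14, -0.57 for S100a6, -0.15 for Rasgef1b, -0.18 for Eps8 and -1.33 for Robo1. With Ppy under 50 it was 2.79 for Lgals3 and 2.96 for Apoe. Without the highest Scrublet scores it was 0.26 for H2-Aa and 0.94 for Lgals3, without members with genes of other cell types 0.25 and 0.92, and with Sst of 500 or more 0.37 for H2-Aa. The depth of 92 cells limits genes under about 20 CPM. No paired analysis was possible because each group had 1 library.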
